A study of Mus musculus with 8 samples.

Results

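RNA from GHMT-transduced mouse tail-tip fibroblasts (TTFs) that received a Wnt inhibitor was compared with RNA from GHMT-transduced TTFs of the same set, 1 array each. The pair makes up 2 of the 8 samples, and was chosen by its labels: the Wnt inhibitor and GHMT arrays of TTF set 2. Each array measured 22206 transcript clusters, the units that stand for genes on the Clariom S mouse array, and 19572 of them carried 1 gene symbol.

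GHMT stands for Gata4, Hand2, Mef2c and Tbx5, cardiac transcription factors that are delivered by retrovirus to turn fibroblasts into cardiomyocyte-like cells. All 8 samples were postnatal TTFs that received these viruses, and the compounds were added together with the virus. Set 1 held GHMT, diclofenac (a cyclooxygenase inhibitor), an antagonist of the prostaglandin receptor EP4, and diclofenac plus PGE2. Set 2 held GHMT, the EP4 antagonist, a TGFb inhibitor and the Wnt inhibitor. The series is titled as a study of cardiac reprogramming under block of the cyclooxygenase-2 and EP4 route. The protocol names DMSO as the vehicle without saying which cultures received it. The labels name neither the Wnt inhibitor compound nor its dose, the day of harvest or what sets the TTF sets apart. Cells without GHMT are not analysed here, so every difference is between transduced cultures.

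In the canonical Wnt pathway, secreted Wnt ligands bind Frizzled receptors with the coreceptors Lrp5 or Lrp6. The signal stops a complex of Axin, Apc and Gsk3 from marking β-catenin for destruction, and β-catenin then acts with TCF/LEF proteins on target genes such as Axin2. In the heart the pathway has stage-dependent roles, and in fibroblasts it is linked to matrix production. Axin2, Apcdd1, Nkd1, Znrf3 and Notum restrain the pathway that induces them, so their transcripts serve as readouts of its activity.

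Values are log2 levels, so a difference of 1 is a 2-fold difference. A level was called above background when it exceeded the 95th percentile of the 23 background probe sets of its array, which lay between 5.73 and 5.99 in the 8 arrays. Between 43.7% and 45.7% of the clusters were above it, and 10081 clusters were above it in the GHMT or the Wnt inhibitor array of set 2. The set 2 arrays had like medians, from 5.10 to 5.14. Over all clusters the GHMT array of set 2 correlated with the EP4 antagonist array at r = 0.993, with the Wnt inhibitor array at 0.989 and with the TGFb inhibitor array at 0.988, and with the set 1 arrays at 0.980 to 0.984.

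The cells carried the markers of their label. Of 24 matched fibroblast identity genes 20 were above background, while the leukocyte marker Ptprc was below it in all 8 arrays (3.98 to 5.05). Of the transduced factors, Mef2c differed by 0.11 between the Wnt inhibitor and GHMT arrays, Hand2 by 0.04 and Tbx5 by 0.00. Gata4 was below background in all 8 arrays (3.91 to 4.44), and the labels do not say whether its probes cover the viral transcript.

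With 1 array a group the difference has no replicate check. The Wnt inhibitor array was at least 2-fold higher in 561 clusters (2.53%) and at least 2-fold lower in 349 (1.57%). Where the higher array also had to be above background, 437 clusters (1.97%) were higher and 248 (1.12%) lower, and the lists described here were counted by that rule. The only replicated contrast, the EP4 antagonist against GHMT in both sets, gives a scale for these sizes. That contrast was subtracted between the sets and scaled down by √2 to the error of 1 such contrast. The result had an SD of 0.39 over the 10081 clusters, and reached a size of 1 in 200 of them (1.98%). The Wnt inhibitor difference had an SD of 0.61 and reached that size in 685 (6.79%).

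A limma fit over the 8 arrays, with the group and the TTF set as terms, lent this spread to the Wnt inhibitor array, which was assumed to vary like the other groups. With 1 residual degree of freedom and 4.92 prior degrees of freedom it called 27 clusters higher (0.122%) and 0 lower at a Benjamini-Hochberg adjusted p under 0.05. At an unadjusted p under 0.05 limma had 1183 higher and 1003 lower. Only these 27 calls rest on a test, and every other difference is given as measured. The labels do not say that samples came from separate cultures or animals, so this p measures the spread between these samples only.

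**Figure D1:**
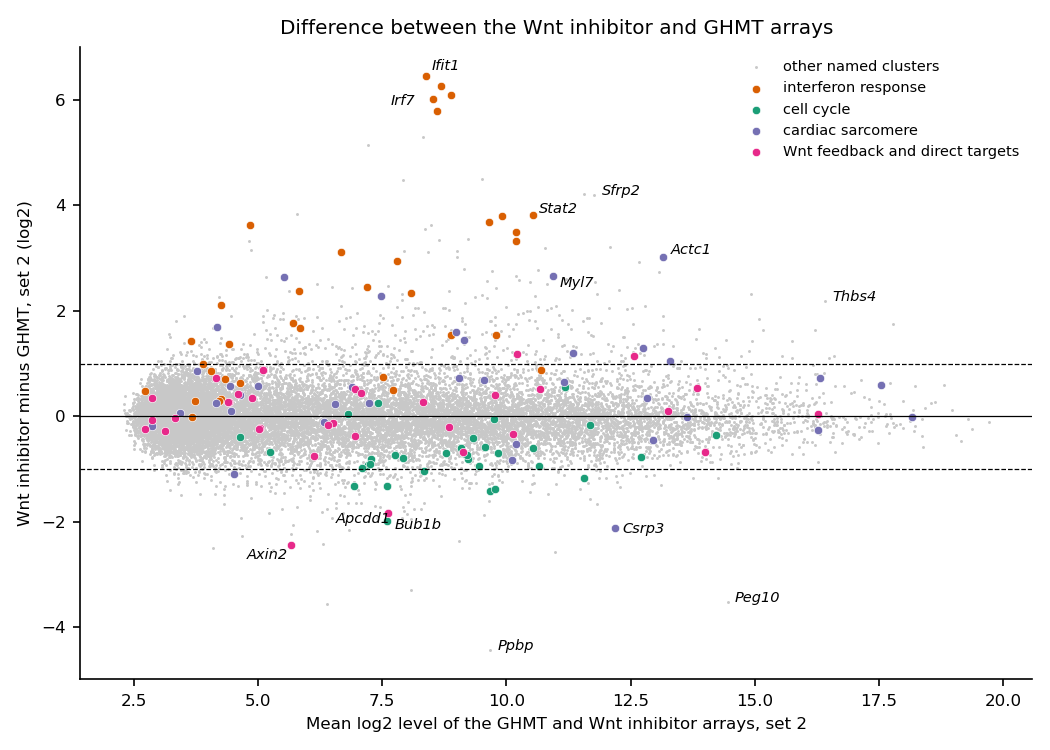
Each point is a named transcript cluster of set 2, placed by the mean log2 level of the GHMT and Wnt inhibitor arrays (x) and by the log2 difference Wnt inhibitor minus GHMT (y), with 4 gene lists in colour and dashed lines at 2-fold. Interferon response genes lie highest, up to 6.46 for Ifit1, while Axin2 at -2.45 and Apcdd1 at -1.83 are the lowest of the Wnt targets.

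Of the Wnt feedback and direct targets, Axin2 and Apcdd1 were lower with the Wnt inhibitor and most others were not. Of 33 matched targets 20 were above background, 2 were at least 2-fold lower and 2 at least 2-fold higher, against 1.12% and 1.97% of all clusters. The 20 split into 10 positive and 10 negative differences. Their median was -0.03, and 0.05 over all 33, beside -0.02 over all clusters.

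Axin2, a scaffold of the destruction complex and a widely used readout of β-catenin, had a level of 6.89 with GHMT, 6.57 with the EP4 antagonist, 7.28 with the TGFb inhibitor and 4.44 with the Wnt inhibitor. The Wnt inhibitor array was alone in lying below background in set 2. Measured against that background level, Axin2 was at least 1.95-fold lower than with GHMT. The fitted difference was -2.33 ± 0.29 (SE), which missed the threshold (limma adjusted p = 0.0934). In set 1 Axin2 lay between 5.60 and 5.78 in the 4 arrays, below background in each.

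Apcdd1, a membrane protein that blocks Wnt signalling at the receptor, had levels of 8.52, 8.79 and 8.61 with GHMT, the EP4 antagonist and the TGFb inhibitor. With the Wnt inhibitor it was 6.69, apart from these 3 arrays and 3.56-fold lower than GHMT (limma adjusted p = 0.119). The 4 set 1 arrays were all below background for Apcdd1 (4.61 to 5.30).

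The other negative feedback genes did not share that difference. Nkd1, which binds Dishevelled, differed by -0.12 and the receptor-degrading ligase Znrf3 by -0.20. Nkd2 was 6.69 with GHMT and 7.20 with the Wnt inhibitor, and highest with the TGFb inhibitor (8.97). Notum, which strips the lipid from Wnt ligands, and Lef1 and Sp5, transcription factors induced by the pathway, were below background in both arrays. Smaller negative differences were seen for Myc (-0.68), for Dkk2 (-0.68), a secreted ligand of Lrp6, and for the ephrin receptor Ephb3 (-0.75). Sox9, a chondrogenic transcription factor (1.18), and Ccn5, a matricellular protein (1.15), were the 2 targets at least 2-fold higher. Ccn4 (Wisp1) differed by 0.10 and Cd44 by 0.05. The listed genes not used here included Rnf43, Tcf7, Ccnd1, Ephb2, Tbxt and Fgf20.

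Wnt ligands were little detected. Of 19 matched ligands 3 were above background: Wnt16 was 5.87 with GHMT and 6.91 with the Wnt inhibitor, Wnt4 6.69 and 5.80, and Wnt5a, a ligand known for β-catenin-independent signalling, 8.10 and 7.62. Of 19 receptors and coreceptors 14 were above background. Of the 19, 2 were at least 2-fold higher and 0 lower, against 1.97% and 1.12% of all clusters. The 2 were Lgr4, a receptor for R-spondins (1.05), and Fzd5 (1.03), with Fzd8 just under the threshold (0.90). Lrp5 (0.54) and Lrp6 (0.21) differed less, and Ptk7, a coreceptor of planar polarity signalling, had the most negative difference (-0.76). Lgr4 was 12.99, 12.54 and 12.83 with GHMT, the EP4 antagonist and the TGFb inhibitor and 14.04 with the Wnt inhibitor, above all 7 other arrays.

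Secreted modulators gave the largest positive difference of the Wnt lists. Of 20 matched, 6 were above background and 3 of them at least 2-fold higher, against 1.97% of all clusters. Sfrp2, which binds Wnt ligands, was 9.67 with GHMT, 10.38 with the EP4 antagonist, 13.74 with the TGFb inhibitor and 13.86 with the Wnt inhibitor. The TGFb and Wnt inhibitor arrays thus stood together, 18.3-fold above GHMT for the Wnt inhibitor, yet the limma fit gave 3.48 ± 0.81 (SE) and an adjusted p of 0.313. The set 1 arrays, GHMT included, lay between 12.75 and 14.86 for Sfrp2, so the Wnt inhibitor level was inside their range. Dkk3, a divergent Dickkopf family member, was 1.24 higher and Rspo2, an R-spondin that sustains Wnt receptors, 1.29 higher. Sfrp1 differed by -0.54 and Rspo3 by -0.35, though the Rspo3 level lay above the other 2 arrays of set 2 (13.04, 11.15, 10.60 and 12.69).

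The intracellular machinery was nearly level. Of 28 matched genes 25 were above background and Axin2 alone was at least 2-fold apart. The median over the 28 was -0.10. Axin1 differed by -0.24, Apc by -0.09, Gsk3b by -0.27, the Axin-degrading poly-ADP-ribose polymerase Tnks by 0.32, the ligand-acylating enzyme Porcn by 0.31, and Tcf7l2 by 0.65.

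**Figure D2:**
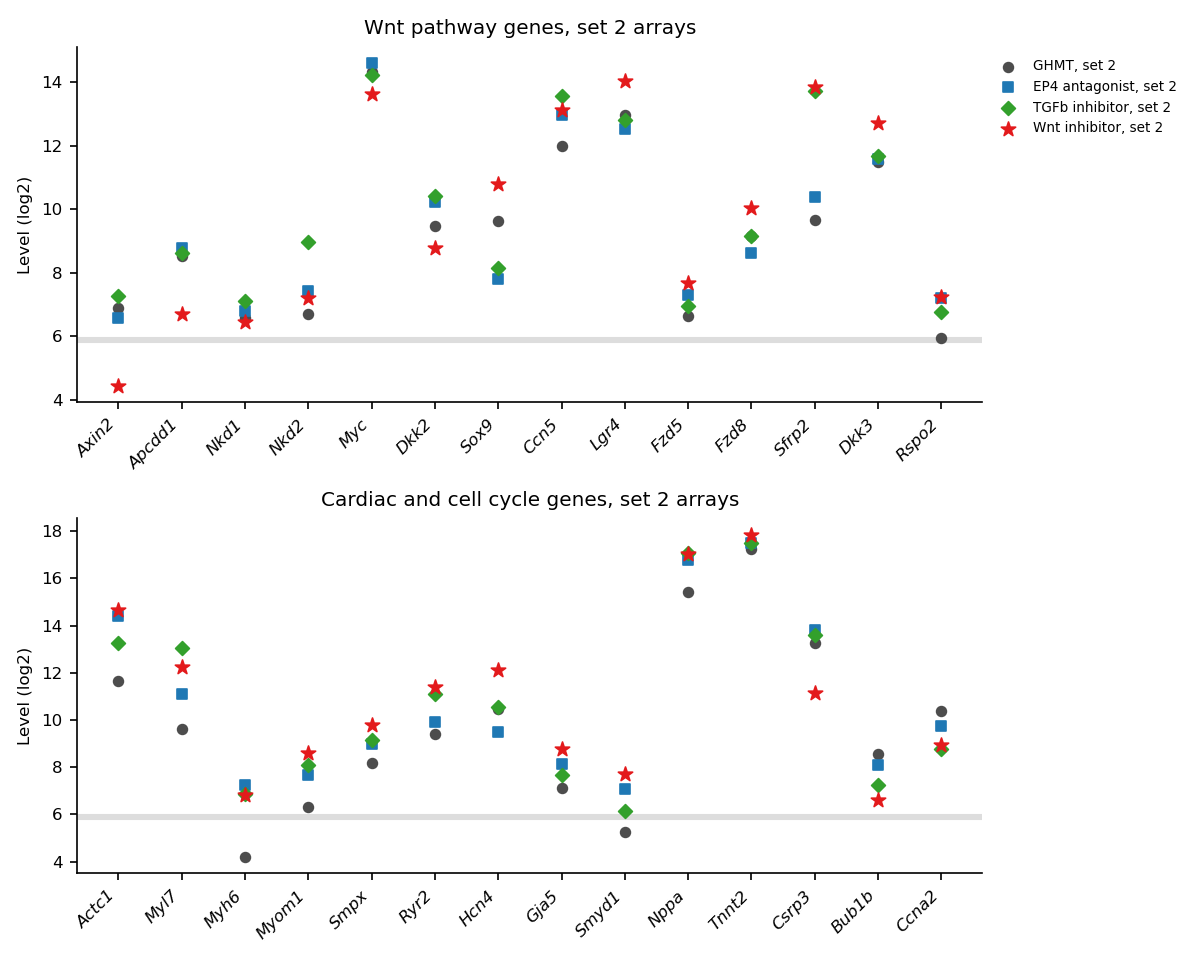
Log2 levels in the 4 set 2 arrays (1 array a group, so no error bars) for Wnt pathway genes (upper panel) and for cardiac and cell cycle genes (lower panel), with the grey band spanning the background levels. The Wnt inhibitor array is lowest for Axin2 (4.44), Apcdd1 (6.69) and Csrp3 (11.14), and the GHMT array is lowest for Actc1 (11.64), Myl7 (9.60) and Nppa (15.40).

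Interferon-stimulated genes had the largest differences between the Wnt inhibitor and GHMT arrays. Type I interferons act through Ifnar1 and Ifnar2 on a complex that includes Stat2 and Irf9 and binds the interferon-stimulated response element (ISRE) of genes that limit viral replication. Of 35 matched interferon response genes 23 were above background, and all 23 were higher with the Wnt inhibitor. Of the 35, 20 were at least 2-fold higher and 0 lower, against 1.97% and 1.12% of all clusters. The list's median difference was 1.77, and 3.11 over the 23, beside -0.02 over all clusters. Of the 27 limma calls, 23 had a gene name and 11 of these were on this list. The TGFb inhibitor array of the same set carried high levels of the same list, with a median difference from GHMT of 1.88, while the EP4 antagonist array had 0.00. These contrasts share the GHMT array.

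Among the effectors, Ifit1, which binds foreign RNA, was 5.15 with GHMT, 5.26 with the EP4 antagonist, 11.58 with the TGFb inhibitor and 11.61 with the Wnt inhibitor. The TGFb and Wnt inhibitor arrays did not overlap the other 6, of which the set 1 arrays lay between 4.60 and 7.19. The GHMT level was at background, which made the difference at least 52.5-fold (fitted difference 6.06 ± 0.50 SE, limma adjusted p = 0.0331). Oasl2, a homologue of the oligoadenylate synthetases, was 5.55, 5.30, 10.80 and 11.82 in the same order. It was at least 60.7-fold higher with the Wnt inhibitor (limma adjusted p = 0.0331). Ifit3, which partners Ifit1, was 5.83, 8.26, 11.16 and 11.92, with the EP4 antagonist array between the 2 groups of levels. Its difference was at least 65.1-fold, and it missed the threshold of the fit (limma adjusted p = 0.153).

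Isg15, a ubiquitin-like modifier, was 3.01, 3.25, 6.09 and 6.64 in the 4 set 2 arrays, above background with the TGFb and Wnt inhibitors alone (limma adjusted p = 0.0317). Measured against background, Isg15 was at least 1.67-fold higher with the Wnt inhibitor than with GHMT. Usp18, which removes Isg15 from proteins and damps the interferon receptor, was 5.70, 5.14, 9.74 and 11.50. Here the Wnt inhibitor array stood 1.76 above the TGFb inhibitor array. Bst2, which tethers budding virions, was 8.00, 7.29, 10.58 and 11.80. Mx2 (2.94), Xaf1 (3.49) and Rtp4 (3.11) were also among the limma calls, all with an adjusted p of 0.0331.

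The transcription factors and sensors of the response were higher too. Irf7, which drives interferon alpha genes, was 5.52, 4.80, 10.86 and 11.53, at least 49.7-fold higher with the Wnt inhibitor than with GHMT. Its fitted difference was 6.03 ± 0.26 (SE), and Irf7 was among the limma calls. Stat2 was 8.62, 8.62, 11.95 and 12.43, and Irf9 was 5.96, 5.59, 8.12 and 8.41. Of the RNA sensors, Ifih1 (Mda5) was 7.80, 7.89, 10.81 and 11.48, Ddx58 (Rig-I) 3.32 higher and Tlr3 2.07 higher. Stat2 and Ifih1 were limma calls, with adjusted p of 0.0331 and 0.0317. The genes upstream did not share this: Ifnb1 was below background in all 8 arrays (3.92 to 4.70), Ifnar1 differed by -0.23 and Ifnar2 by 0.36.

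Not every interferon response gene was high. Of the 35, 12 were below background in both arrays, among them Rsad2, Cxcl10, Oas2 and Mx1. Isg20 (0.74), Irf1 (0.49) and Ifi27 (0.87) were above background and less than 2-fold higher. Ifi27l2a, a relative of Ifi27 that is not on the list, was among the 15 lowest genes, with 6.56 with GHMT and 4.02 with the Wnt inhibitor. Off the list, interferon-inducible Irgm2, Trim30a, Trim30d, Slfn5 and Gbp7 were limma calls, with differences of 5.14, 3.33, 3.16, 3.84 and 3.37. The GHMT level was at background for all but Gbp7. Measured against background, Irgm2 was at least 14.8-fold, Trim30a 1.49-fold, Trim30d 1.45-fold and Slfn5 3.49-fold higher.

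**Figure D3:**
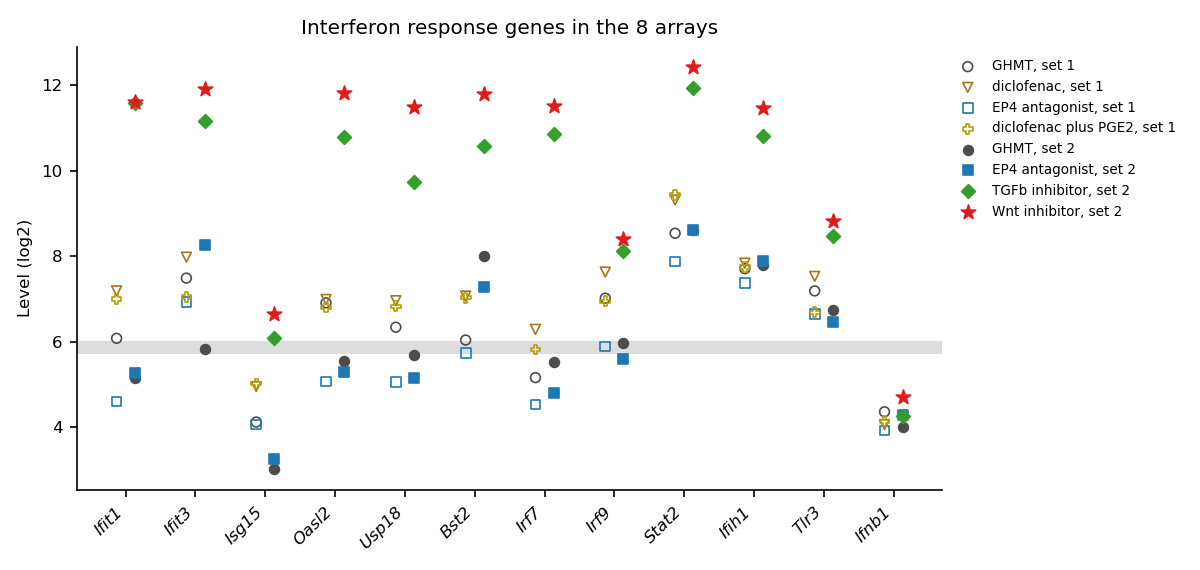
Log2 levels of 12 interferon response genes in the 8 arrays (open symbols set 1, filled symbols set 2, 1 array each, no error bars), with the grey band spanning the background levels. The Wnt and TGFb inhibitor arrays of set 2 lie above the 6 other arrays for every gene shown other than Ifnb1, which stays below background in all 8.

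The promoters of Ifit1, Ifit3 and Isg15 are shown as examples of list members counted as at least 2-fold higher whose RefSeq promoters hold ISRE matches. The lines give positions -170 to -41 from the annotated start, 5′ to 3′ on the gene's strand, in build GRCm38.p6, with matches to GAAANNGAAA on either strand in capitals.
Ifit1: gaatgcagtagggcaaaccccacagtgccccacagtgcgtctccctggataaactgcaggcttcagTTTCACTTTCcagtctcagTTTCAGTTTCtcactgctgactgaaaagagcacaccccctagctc
Ifit3: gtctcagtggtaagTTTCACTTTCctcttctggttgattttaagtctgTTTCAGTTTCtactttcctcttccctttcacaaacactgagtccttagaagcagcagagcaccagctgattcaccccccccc
Isg15: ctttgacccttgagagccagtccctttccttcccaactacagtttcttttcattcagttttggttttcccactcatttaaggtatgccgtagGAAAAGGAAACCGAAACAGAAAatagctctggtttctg
They lie at chr19:34640719-34640848 on the plus strand, chr19:34583359-34583488 on the plus strand and chr4:156200859-156200988 on the minus strand. Ifit1 and Ifit3 hold 2 separate matches each, and the capitals of Isg15 are 3 overlapping ones.

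The ISRE letters were found in 3.44% of all 32851 promoters of the table, each 250 bases before to 50 after a start, and for 618 of the 15691 array genes with a promoter there (3.94%). Among the genes at least 2-fold higher with the Wnt inhibitor, 39 of 311 with a promoter in the table held a match (12.5%). Among those at least 2-fold lower it was 11 of 177 (6.21%). On the interferon list 26 of the 35 matched members have a promoter in the table and 13 of these held one. Of the 20 members at least 2-fold higher 16 have a promoter there, and 8 of these held one. Oasl2 and Irf7 hold no match in this window, and Usp18 and Rtp4 have no entry. The TCF/LEF letters CTTTGAT or CTTTGAA, searched on both strands, were in 8.65% of all promoters and held by 8.71% of the array genes with one. Of the 33 matched Wnt targets 20 have a promoter in the table, and 4 of these held a match. They were in 9.32% of the higher and 3.95% of the lower genes. The Axin2 window holds no match of either motif. A match is a description of letters and not a bound site.

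Few genes set the Wnt inhibitor array apart from every other array. It was at least 2-fold above the 3 other set 2 arrays in 66 clusters (0.297%) and below them in 26 (0.117%). By the same rule the GHMT array stood above in 17 and below in 44, the EP4 antagonist array in 50 and 77, and the TGFb inhibitor array in 137 and 141. Of the 66 and 26, the Wnt inhibitor level lay within the range of the set 1 arrays in 16 and 4. Of the 437 clusters higher and 248 lower than GHMT it did so in 85 and 79. It was at least 2-fold above all 7 other arrays in 29 clusters (0.131%) and below them all in 8 (0.036%). In 4 of these 8 the 7 other arrays were all above background, so that the order could be read. This rule was added after values were seen, and the genes named under it were chosen with their values known.

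Peg10, Cth and Arhgap28 were below all 7 other arrays, which were above background for each of them. Axin2 can be ordered against the set 2 arrays only. Peg10, an imprinted gene derived from a retrotransposon, was 16.22, 14.74, 16.21 and 12.69 with GHMT, the EP4 antagonist, the TGFb inhibitor and the Wnt inhibitor. It lay between 13.76 and 15.48 in set 1, so the Wnt inhibitor array was the lowest of all 8, 11.6-fold below GHMT (fitted difference -3.07 ± 0.56 SE, limma adjusted p = 0.212). Cth, the enzyme that makes cysteine from cystathionine, was 7.27, 6.84, 7.07 and 5.09, at least 2.54-fold lower than with GHMT. Arhgap28, a GTPase-activating protein, was 7.79, 7.49, 7.53 and 6.15.

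Of the genes above all 7 other arrays, the stromelysin Mmp3 was 12.20, 10.85, 10.08 and 14.11 in the set 2 arrays, in the same order. The collagenase Mmp13 was 11.05, 10.68, 9.79 and 13.10. Thbs4, a matricellular thrombospondin, was 15.32, 15.41, 14.86 and 17.51, and its relative Comp was above background with the Wnt inhibitor alone in set 2 (5.83, 5.28, 5.07 and 7.69). In each of these 4 genes the Wnt inhibitor array was the highest of the 8, with limma adjusted p between 0.126 and 0.253. Angpt1, a ligand of the endothelial receptor Tek, was 2.61 higher than with GHMT and Ltbp2, which binds microfibrils, 1.51 higher. Tissue factor, F3, was 1.75 higher, and the globin Cygb 3.13 higher. Hpgd, which inactivates PGE2, was 8.35 with GHMT, 9.60 with the EP4 antagonist, 7.98 with the TGFb inhibitor and 10.65 with the Wnt inhibitor.

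Other genes apart within set 2 were not apart from set 1. Fmod (fibromodulin), a collagen-binding proteoglycan, was 9.25, 8.42, 7.48 and 12.02, and the difference from GHMT was a limma call (2.81 ± 0.27 SE, adjusted p = 0.0415). In set 1 Fmod lay between 10.77 and 12.28. Ednrb, the endothelin receptor B, was 9.20, 8.66, 9.04 and 11.75, with set 1 between 9.85 and 11.17 (limma adjusted p = 0.0537). Serpind1, a thrombin inhibitor, was 6.57, 7.11, 8.34 and 10.13 and a limma call (adjusted p = 0.0317), with set 1 between 8.70 and 10.79.

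**Figure D4:**
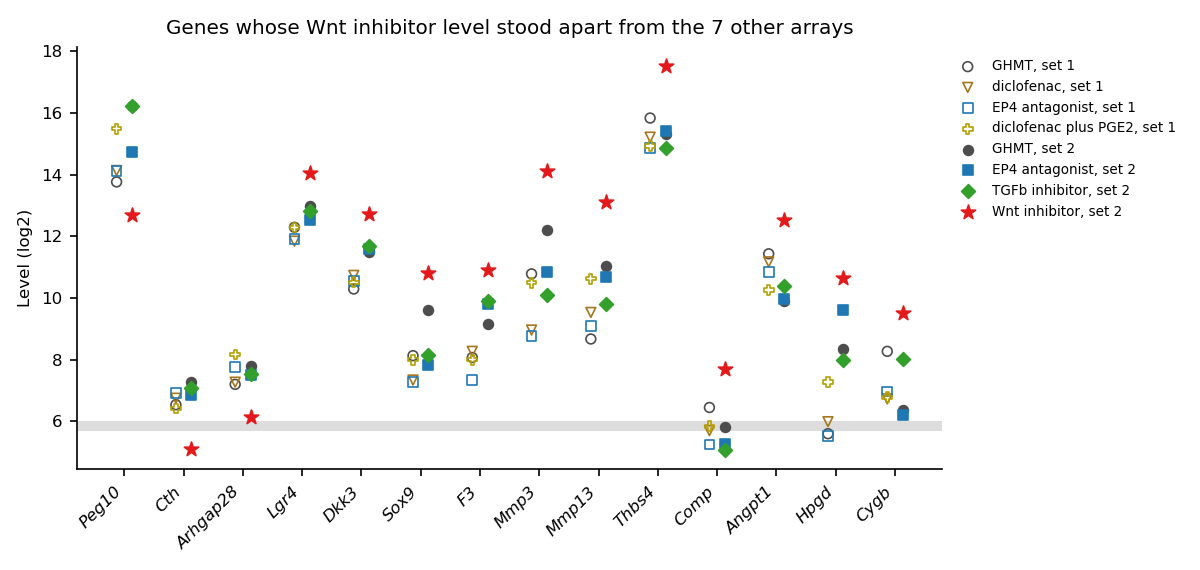
Log2 levels in the 8 arrays (open symbols set 1, filled symbols set 2, 1 array each, no error bars) of 14 genes whose Wnt inhibitor level was at least 2-fold above or below all 7 other arrays, chosen after values were seen. The Wnt inhibitor array is lowest for Peg10 (12.69), Cth and Arhgap28 and highest for the other genes, such as Thbs4 (17.51) and Mmp3 (14.11).

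For some of the lowest differences the GHMT array of set 2 was the one that stood apart. For others, such as Axin2, Peg10 and Csrp3, the Wnt inhibitor array did. The platelet-type chemokine Ppbp had the lowest difference of all named genes (-4.44), with levels of 11.89 with GHMT, 9.63 with the EP4 antagonist, 8.24 with the TGFb inhibitor and 7.45 with the Wnt inhibitor. Tnn (tenascin N) was 9.72 with GHMT and between 6.02 and 6.58 in the other set 2 arrays. Mcpt8 was 12.26 with GHMT and between 8.70 and 10.37 in the others. Hhip, a Hedgehog-binding protein, was 7.51 with GHMT and between 5.08 and 5.94 in the others. The GHMT array of set 1 did not share these high levels, with 5.82 for Ppbp, 5.16 for Tnn, 6.19 for Mcpt8 and 5.11 for Hhip. Gpr50 was high with GHMT (8.16) and the TGFb inhibitor (7.74), and below background with the EP4 antagonist (5.07) and the Wnt inhibitor (4.59). Among the highest genes, Stmn2, a neuronal tubulin-binding protein, was 7.25 with GHMT and between 10.52 and 11.75 in the other 3.

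Some cardiac contractile genes, among them Actc1, Myl7 and Myh6, had higher levels with the Wnt inhibitor than with GHMT, and none was a limma call. Of 36 matched sarcomere genes 26 were above background, 9 were at least 2-fold higher and 1 lower, against 1.97% and 1.12% of all clusters. Of the 26 differences 18 were positive. The median over the 36 was 0.56, and 0.27 with the median of the 3 other set 2 arrays as control. In the TGFb inhibitor array 8 were higher and 1 lower (median 0.25), against 2.3% and 2.03% of all clusters. In the EP4 antagonist array it was 7 and 0 (median 0.52), against 0.923% and 0.973%. All 3 contrasts share the GHMT array. In these bulk samples more cells of a type and more RNA per cell cannot be told apart.

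Actc1, cardiac alpha-actin, was 11.64 with GHMT, 14.39 with the EP4 antagonist, 13.24 with the TGFb inhibitor and 14.66 with the Wnt inhibitor. The GHMT array was lowest, and the Wnt inhibitor array exceeded the EP4 antagonist array by 0.27 (limma adjusted p against GHMT = 0.118). Myl7, the atrial regulatory light chain, was 9.60, 11.11, 13.03 and 12.26 (limma adjusted p = 0.0537). Myh6, the alpha myosin heavy chain, was 4.19, 7.25, 6.88 and 6.84, below background with GHMT alone in set 2. Measured against background, Myh6 was at least 1.92-fold higher with the Wnt inhibitor than with GHMT. In set 1 Myl7 lay between 10.48 and 13.59 and Myh6 between 5.99 and 10.22, so both Wnt inhibitor levels were inside these ranges. The GHMT array of set 1 was 12.72 for Actc1, 11.42 for Myl7 and 6.89 for Myh6. The M-band genes Myom1 (2.29) and Myom2 (1.45) and the muscle peptide Smpx (1.60) were higher, and Tnnt2, cardiac troponin T, differed by 0.60.

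Csrp3, the muscle LIM protein of the Z-disc, went the other way. It was 13.25 with GHMT, 13.81 with the EP4 antagonist, 13.59 with the TGFb inhibitor and 11.14 with the Wnt inhibitor, the lowest of the 4. In set 1 it ranged from 9.11 to 12.06, and the limma fit gave -1.51 ± 0.70 (SE, adjusted p = 0.566).

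Of 25 matched genes of calcium handling and ion channels 14 were above background, with a median of 0.25 over the 25. Of the 25, 5 were at least 2-fold higher and 0 lower, against 1.97% and 1.12% of all clusters. Ryr2, the calcium release channel of the sarcoplasmic reticulum, was 9.41, 9.93, 11.10 and 11.41. Hcn4, the pacemaker channel, was 10.48, 9.47, 10.57 and 12.13, so the Wnt inhibitor array was alone at the top in set 2, while the set 1 arrays lay between 11.76 and 13.01. The atrial connexin Gja5 was 1.62 higher, the sodium-calcium exchanger Slc8a1 1.54 and calsequestrin Casq2 1.14. Of 19 matched cardiac transcription factors and hormones 10 were above background. Of the 19, 3 were at least 2-fold higher and 1 lower, against the same 1.97% and 1.12%. Nppa, which codes for atrial natriuretic peptide, was 15.40 with GHMT and 16.77, 17.09 and 17.03 in the others. Smyd1, a muscle methyltransferase, was 5.26, 7.08, 6.14 and 7.71, with set 1 between 6.45 and 9.43, and Popdc2 was 1.22 higher. Tbx2, a repressor of chamber genes, was 1.26 below GHMT (8.63 and 9.89). Of 24 oxidative and muscle metabolism genes 17 were above background and 1, Ppargc1a, was counted as at least 2-fold higher, against 1.97%. Its GHMT level was at background, and measured against background Ppargc1a was at least 1.07-fold higher.

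Most cell cycle genes had lower levels with the Wnt inhibitor than with GHMT. Of 33 matched genes 31 were above background, 28 of these had negative differences, 7 were at least 2-fold lower and 0 higher, against 1.12% of all clusters for the lower count. The median was -0.74, beside -1.08 for the TGFb inhibitor array and -0.14 for the EP4 antagonist array. Bub1b, a spindle checkpoint kinase, was 8.58, 8.08, 7.23 and 6.60 in the set 2 arrays, lowest with the Wnt inhibitor (limma adjusted p = 0.116). Cyclin A2 (Ccna2) was 10.37, 9.73, 8.76 and 8.95, where the TGFb and Wnt inhibitor arrays stood together. Cdk1 differed by -1.33, the ubiquitin-conjugating enzyme Ube2c by -1.37, Birc5 by -1.33, the ribonucleotide reductase subunit Rrm1 by -1.18 and Aurkb by -1.03. Mki67 differed by -0.78 and Pcna by -0.35. None of the list was a limma call.

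Cholesterol synthesis genes leaned the same way with smaller sizes. All 17 matched genes were above background, and 1 was at least 2-fold lower, against 1.12% of all clusters. Of the 17, 15 had negative differences, with a median of -0.47, beside -0.61 for the TGFb inhibitor array and 0.00 for the EP4 antagonist array. Mvd (-1.21), the synthase Hmgcs1 (-0.88) and Fdps (-0.86) had the largest. Of 25 matched hypoxia and glycolysis genes 23 were above background, and 19 of these were negative. Hexokinase Hk2 (-1.57) and the regulator Pfkfb3 (-1.21) were the 2 at least 2-fold lower, against 1.12% of all clusters. For Hk2 the GHMT array stood apart, at 12.46. The EP4 antagonist, TGFb inhibitor and Wnt inhibitor arrays were 11.23, 10.85 and 10.89. Of 23 stress response genes 21 were above background, with a median of -0.27 over the 23. The serine synthesis enzyme Phgdh (-1.61) alone was at least 2-fold lower, against the same 1.12%.

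Matrix and TGFb response genes were mostly near the GHMT level with the Wnt inhibitor and lower with the TGFb inhibitor. Of 34 matched collagen and matrix genes 30 were above background. With the Wnt inhibitor 0 were at least 2-fold higher and 1 lower than with GHMT, against 1.97% and 1.12% of all clusters. The median was 0.08, beside -0.73 for the TGFb inhibitor array. The direct difference, Wnt inhibitor minus TGFb inhibitor, had a median of 0.77. By it 14 of the 34 were at least 2-fold higher with the Wnt inhibitor and 1, Thbs2 (-1.01), lower, against 1.69% and 1.37% of all clusters. For Col1a1 the 4 arrays gave 16.76, 16.34, 15.28 and 16.28, and for Postn, a matricellular protein induced by TGFb, 11.28, 11.53, 8.64 and 10.90. The TGFb inhibitor array was the low one in both. Fibrillin 2 (Fbn2), the 1 gene at least 2-fold lower with the Wnt inhibitor, was 7.90, 7.24, 5.14 and 5.75. Col3a1 came close to that threshold (-0.98), at 15.14, 14.58, 13.94 and 14.16. Over all clusters limma called 0 differences between the Wnt and TGFb inhibitor arrays at an adjusted p under 0.05. Its lowest adjusted p was 0.0558, and 1790 clusters had an unadjusted p under 0.05.

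Of 27 matched TGFb response genes 26 were above background. Of the 27, 4 were at least 2-fold higher and 1 lower than with GHMT, against 1.97% and 1.12% of all clusters. The median was 0.16, beside -0.97 for the TGFb inhibitor array. Pmepa1, a feedback gene of TGFb signalling, was 14.07, 14.05, 10.19 and 14.00, and only the TGFb inhibitor array was low. The inhibitors of DNA binding Id1 (1.94), Id2 (1.30) and Id3 (1.14), known targets of BMP signalling, were higher with the Wnt inhibitor. Id1 was 9.27, 8.28, 11.33 and 11.21, again with the TGFb and Wnt inhibitor arrays together. Of 21 matched BMP response genes and antagonists 13 were above background and 5 at least 2-fold higher, against 1.97% of all clusters. The 5 were the Id genes, Grem1 (1.43) and Atoh8 (1.32). Cnn1, calponin of smooth muscle, was 1.66 below GHMT at 12.66 and 11.00.

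Fibroblast identity genes were not lower. Of 24 matched genes 5 were at least 2-fold higher and 0 lower, against 1.97% and 1.12% of all clusters. The median was 0.12. Islr was 8.33, 7.86, 10.33 and 11.08, the matrix protein dermatopontin (Dpt) 8.07, 7.64, 10.37 and 9.70, and both were higher in the TGFb and Wnt inhibitor arrays. Pdgfrb (1.51), Snai2 (1.44) and Thy1 (1.18) were the other 3.

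Of the prostaglandin route, which the series is about, Hpgd, Ptger1 and Ptgs2 were counted as at least 2-fold apart. Of 22 matched prostanoid genes 13 were above background. Of the 22, 2 were at least 2-fold higher and 1 lower, against 1.97% and 1.12% of all clusters. Hpgd was 2.30 higher. Ptger1 was 1.30 higher, and at least 1.57-fold higher when measured against background. Ptgs2, cyclooxygenase-2, was 12.86 with GHMT, 13.72 with the EP4 antagonist, 10.32 with the TGFb inhibitor and 11.61 with the Wnt inhibitor. Ptger4, which codes for EP4, differed by 0.20. Of 35 matched inflammatory genes 19 were above background. Of the 35, 4 were at least 2-fold higher and 3 lower, against the same 1.97% and 1.12%. The chemokine Cxcl12 was 11.07, 11.07, 11.82 and 13.47, highest with the Wnt inhibitor (2.40, limma adjusted p = 0.0636), and Ccl8 was 1.02 higher. In set 1 Cxcl12 lay between 13.03 and 14.10, with 13.97 for GHMT, so the Wnt inhibitor level was inside that range. Cxcl14 (-1.93), Il33 (-1.82) and Il11 (-1.12) were lower, and for all 3 the GHMT array was the highest of set 2.

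**Figure D5:**
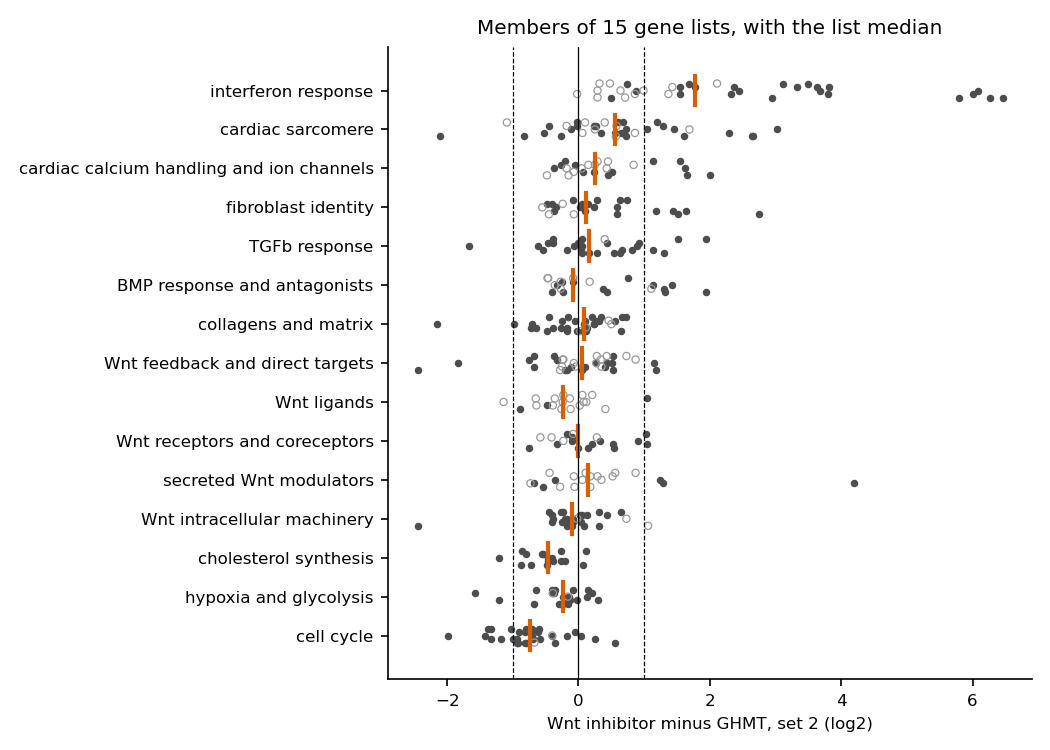
Log2 difference Wnt inhibitor minus GHMT of set 2 (x) for each matched member of 15 gene lists (y), filled where the higher array was above background and open otherwise, with an orange bar at the median over all members and dashed lines at 2-fold. The interferon list has a median of 1.77 and the cell cycle list of -0.74, while the Wnt target list has 0.05.

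Markers of other cell types were mostly at background, except those of smooth muscle. Of 16 matched smooth muscle markers 12 were above background, and 9 of these had negative differences. Of the 16, 1 was at least 2-fold higher and 2 lower, against 1.97% and 1.12% of all clusters. The higher one was Ramp1 (2.48), and the lower ones were Cnn1 (-1.66) and Actg2 (-1.08). Of 17 matched leukocyte markers 1 was above background, Lyz2 (4.51 with GHMT and 6.47 with the Wnt inhibitor), and the summed level of the list was 63.3, 63.2, 63.9 and 64.9 in the set 2 arrays. Of 13 endothelial markers 2 were above background, with 0 at least 2-fold apart, and of 16 keratinocyte markers 3, with Perp (-1.27) and Krt19 (-1.26) lower. All 6 adipocyte markers above background, of 14, had positive differences. Lpl was 9.57, 9.08, 12.30 and 12.07 and Pparg 5.24, 5.75, 6.85 and 7.12, while the defining Adipoq was below background in all 8 arrays. The summed level of the adipocyte list was 76.2, 76.0, 85.8 and 85.4. Of 14 cartilage and bone markers 6 were above background, all with positive differences, with summed levels of 77.2, 75.1, 73.9 and 84.8. Of 24 skeletal muscle markers 6 were above background. The light chain Myl1 was 8.33, 10.36, 14.47 and 10.89, and the regulators Myod1 and Myog were below background in all 8. The part of these markers in the other differences was not tested.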

How the data were processed

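Total RNA of each sample was hybridised to 1 Clariom S mouse array. Per the submitters' design text, the authors normalized all arrays with SST-RMA in Affymetrix Expression Console 1.4, and the deposited values behave as log2 levels with no further centring. SST-RMA rescales probe signals before summarising them, so the sizes of differences depend on it. The table's 28846 rows included 6640 control probe sets, which were left out. Gene symbols came from the platform annotation for 19572 of the 22206 clusters, and the other 2634 are unnamed here. Where a symbol had several clusters, the one with the highest mean was used.

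The value of a gene is the Wnt inhibitor array minus the GHMT array of set 2. Where the lower array was below its background level, the fold was taken against that level and given as a lower bound. Names were drawn from the 15 highest and 15 lowest genes and the detected members of the Wnt lists. They were also drawn from up to 6 members of each other list with the largest size. A fixed set of factor, cardiac, matrix and prostanoid genes was added. Not every gene of these groups is named in the text. Predicted genes were skipped. Other names were chosen after values were seen. In all, 34 lists with 787 entries matched 693 genes. Members and lists were chosen with earlier results of these data known.

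limma 3.58.1 in R 4.3.3 fitted the 6 groups and the TTF set as a replicate block, with Benjamini-Hochberg adjustment over all clusters, and was tested on simulated data. Same-numbered TTF sets pair GHMT with the EP4 antagonist only. Python 3.11.15 with pandas 2.3.3 did the rest. Promoters came from RefSeq (GRCm38.p6). Alternatives were quantile normalization, median centring, loess, a filter on background, another control, other fold thresholds and the limma fit. The number of arrays limits the precision.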

Additional observations from a re-analysis of the deposited data

How the results depend on the processing

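Against 561 clusters at least 2-fold higher and 349 lower, a threshold of 1.5-fold gave 1897 and 1809, and 3-fold gave 195 and 55. With the median of the 3 other set 2 arrays as control, 410 were higher and 194 lower. The limma fit with the TTF set as a replicate block called 27 higher and 0 lower, while its fitted differences put 523 and 278 past 2-fold. No leave-one-out was possible, because each of the 2 groups has 1 array in the set. Quantile normalization, median centring, loess and the background filter kept both counts within 1.5 times (437 to 596 higher, 248 to 341 lower). The median of the Wnt targets stayed between -0.05 and 0.12.

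Of 161 named genes, 161 kept their difference within 0.39 (the spread of the EP4 antagonist contrast) under each of quantile normalization, median centring and loess. With the median of the other arrays as control 55 moved further and 3 reversed: Il11 to 1.26, Myh6 to -0.04 and Nqo1 to -0.49. Smaller differences changed sign for Rspo3 (-0.35 to 1.54), Nkd2 (0.51 to -0.22) and Cd44 (0.05 to -0.07), and under the replicate block for Axin1 (-0.24 to 0.04) and Peg3 (-0.08 to 0.16). Under the replicate block 21 moved and 0 reversed. The cause was not tested. Signal limits the rest: no array had more than 45.7% of the clusters above background.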

Other observations

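Genes named here were chosen after their values were seen. Sgce, the imprinted gene that shares the Peg10 promoter region, differed by 0.25 from GHMT in set 2, and the other imprinted genes Igf2 by -0.47, Mest by -0.35 and Peg3 by -0.08. Plagl1, an imprinted zinc finger gene, was 9.98 with GHMT, 11.03 with the EP4 antagonist, 8.67 with the TGFb inhibitor and 11.22 with the Wnt inhibitor. Dio3, an imprinted gene whose enzyme inactivates thyroid hormone, was 7.43, 5.90, 9.97 and 5.69, highest with the TGFb inhibitor and at background with the Wnt inhibitor, at least 2.83-fold below GHMT.

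Cyp1b1, an oxidase induced through the aryl hydrocarbon receptor, was 10.22, 9.86, 9.23 and 7.86 in the set 2 arrays, lowest with the Wnt inhibitor, while set 1 lay between 8.07 and 8.69. Cyp1a1, another target of that receptor, was below background in both arrays. The aldehyde dehydrogenases Aldh3a1 (-1.73) and Aldh1a2 (-1.75), the latter a maker of retinoic acid, were lower than with GHMT, and Nqo1, a quinone reductase, was 1.02 higher. The pericyte proteoglycan Cspg4 was 9.36 with GHMT, 10.90 with the EP4 antagonist, 7.88 with the TGFb inhibitor and 11.31 with the Wnt inhibitor. The cathepsin Ctsk was above all 7 other arrays, 1.81 higher than with GHMT, as was the lipocalin Apod (1.96). The limma calls off the interferon list also held the seminal vesicle gene Svs3b (3.62), the membrane glycoprotein Gpnmb (2.74), the basigin relative Emb (3.02), Ccdc3 (3.11) and Lgals3bp (2.92).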
